A study of Arabidopsis thaliana with 6 samples.

Results

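Transcripts of 10 jasmonate synthesis and response genes were measured in germinated seeds of Arabidopsis thaliana: LOX2 (AT3G45140), AOS (AT5G42650), AOC1 (AT3G25760), AOC2 (AT3G25770), OPR3 (AT2G06050), OPR1 (AT1G76680), OPR2 (AT1G76690), JAR1 (AT2G46370), JAZ1 (AT1G19180) and VSP2 (AT5G24770). They were chosen by locus, as a list of pathway genes, with earlier results of these data known. The 10 loci carried 18 of the 35986 features on the arrays, 1 feature per gene model, and stood for 10 of 27981 loci. Seeds of the Col-0 accession were germinated at 22 °C in constant white light and selected at radicle protrusion, the stage at which the young root has just emerged. The PEG group was then kept for 72 h in a polyethylene glycol solution of -2.5 MPa, in the dark at 20 °C. The untreated group was collected at the same stage without that incubation. Each group had 3 arrays, 1 per pool of seeds, and each pool came from the harvest of 2 or more plants. Osmotic stress, darkness, the added time and the lower temperature differ between the groups together and cannot be told apart.

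Jasmonates are lipid hormones made from linolenic acid of the plastid membranes. A lipoxygenase, allene oxide synthase and allene oxide cyclase act in turn in the plastid to give oxophytodienoic acid, which is reduced by OPR3 and shortened by β-oxidation in the peroxisome, and JAR1 joins the jasmonic acid to isoleucine. The conjugate binds the receptor COI1 together with JAZ proteins, which repress transcription factors such as MYC2 until they are degraded, and many JAZ genes are themselves switched on by the hormone.

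Levels are log2 array values, and each fold change is a difference of log2 values, PEG minus untreated. Values under 4 were treated as too dim to rank and set to 4 before the fit, as the study's methods describe for its arrays of ABA-treated seeds. Calls needed both a limma p, adjusted by Benjamini-Hochberg over all features, of 0.01 or less and a log2 fold change of at least 2 in either direction. Results with the deposited values, without that limit, are given beside the others, since the limit shortens the change of a gene that dims below it. A gene with several features is represented by the brightest. Features of the same gene are not independent measurements, since some had identical values on every array. In a mixed organ such as a seed, fewer cells of a type and less RNA per cell cannot be told apart.

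Array medians lay between 4.81 and 4.97, and arrays correlated at 0.982 to 0.992 within groups and at 0.898 to 0.924 between them, across features. Untreated array 2 stood apart from the other untreated arrays on the second principal component (4.8% of the variance), with a lower quartile of 2.83 against 2.30 to 2.45 on the other 5 arrays. Over all features, 990 were called, and 12085 (33.6%) were under 4 on all 6 arrays. The seed reserve markers CRA1, CRU3, OLEO1 and OLEO2, which encode storage proteins and oil body coats, were higher after PEG by 5.10 to 6.42 on the log2 scale. Transcripts of reserve mobilisation (ICL, MLS and PCK1) and of the endosperm expansin EXPA2 were present in both groups. PCK1 was lower after PEG (log2 fold change -0.46, limma adjusted p = 0.00097, and 0.026 with the deposited values). ICL (0.37), MLS (0.11) and EXPA2 (0.47) were not past the p limit. The pollen marker VGD1 and the floral marker AG were under 4 on all arrays. Of 4 dark-inducible markers, DIN1 (log2 fold change -0.61, limma adjusted p = 0.0054) and DIN10 (-3.15, adjusted p = 0.0058) were lower after PEG, DIN6 had a fold change of 1.55 (adjusted p = 0.062; 2.95 and 0.00038 with the deposited values), and DIN2 was under 4 on all arrays. What part reserve storage or darkness has in the values below was not tested.

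Among the 10 genes, transcripts of the repressor gene JAZ1 and of the synthesis gene AOS fell after PEG, those of OPR3 rose, and JAR1 did not differ beyond the spread of the arrays. LOX2, AOC1, AOC2 and VSP2 were under 4 on all arrays. OPR1 and OPR2 were lower on every PEG array, but all their PEG values lay under 4, so that their tests turned on the treatment of dim values. At an adjusted p of 0.01 or less and any fold, 2 of the 10 genes fell (JAZ1 and AOS) and 1 rose (OPR3), while 8.24% of all features fell and 7.46% rose. At both limits 1 gene, JAZ1, was called lower and 0 were called higher, against 1.60% and 1.15% of all features. At an unadjusted p under 0.05 in limma and any fold, OPR3 was the only gene higher and AOS, OPR1 and JAZ1 were lower. The share of all features past an unadjusted p was not counted, here or below. With the deposited values, 4 genes fell at any fold (AOS, OPR1, OPR2 and JAZ1) and 1 rose (OPR3), against 15.2% and 11.6% of all features, and 2 were called lower (OPR1 and JAZ1) and 0 higher, against 3.20% and 1.48%. The PEG arrays lay wholly under the untreated arrays for 4 genes and wholly over them for 1, as they did for 25.9% and 23.6% of all features. The median fold change of the 10 genes was -0.02, beside 0 over all features, and -0.43 beside 0.01 with the deposited values.

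**Figure D1:**
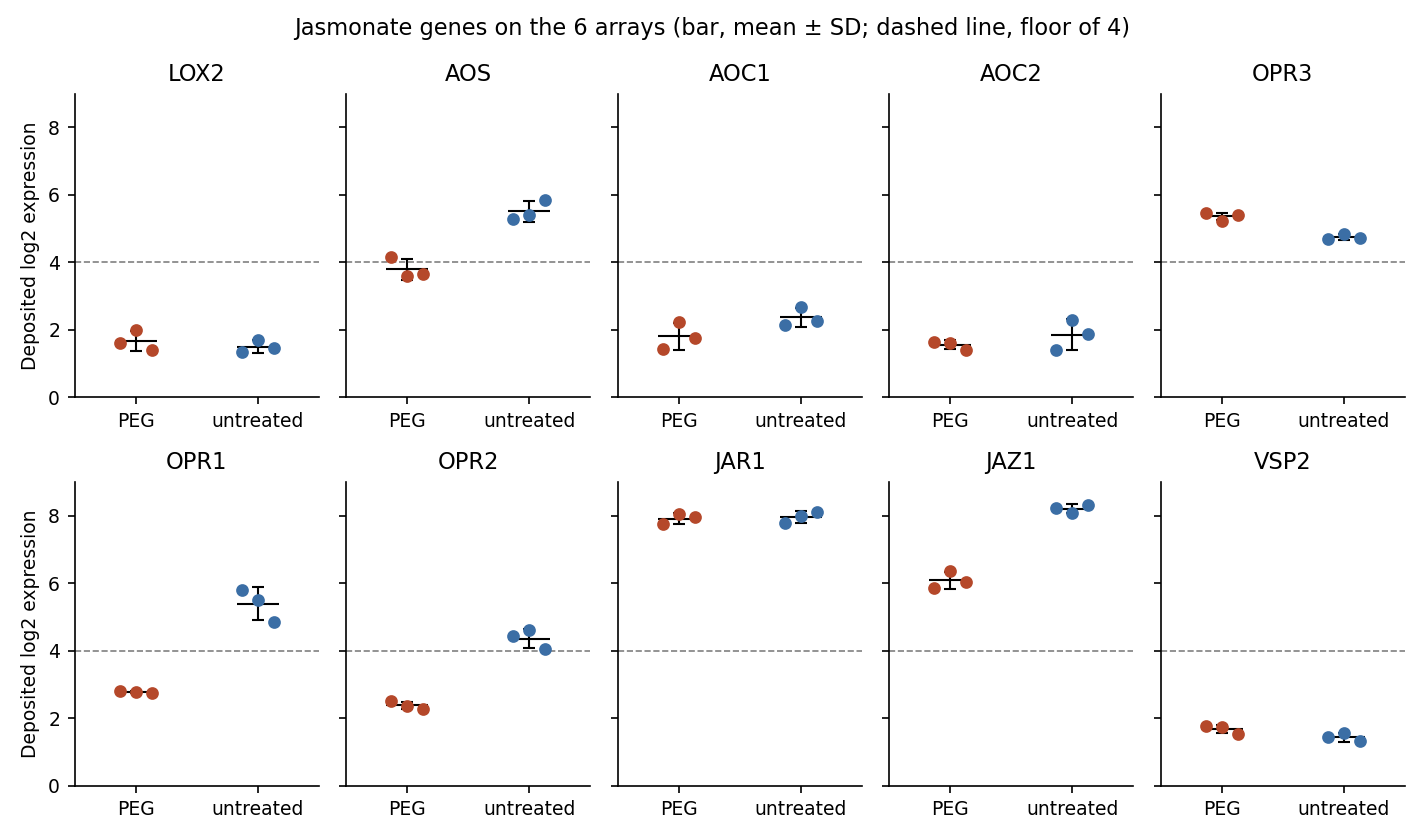
Deposited log2 values of the 10 genes, 1 panel per gene, with PEG arrays on the left and untreated arrays on the right. Dots are arrays, bars are means with SD over 3 arrays, and the dashed line marks 4. JAZ1, AOS, OPR1 and OPR2 are separated downward after PEG, OPR3 is separated upward, JAR1 overlaps, and LOX2, AOC1, AOC2 and VSP2 stay under the line.

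The first step of synthesis was not measurable through its best known gene. LOX2, a plastid lipoxygenase prominent in wounded leaves, had values of 1.62, 1.99 and 1.40 on the PEG arrays and 1.34, 1.70 and 1.45 on the untreated arrays. All 6 values were under 4 and the groups overlapped, so no fold change was read. AOS, the allene oxide synthase and a single-copy gene in this species, had 4.14, 3.58 and 3.64 after PEG and 5.27, 5.40 and 5.85 in untreated seeds. The lowest untreated array was above the highest PEG array, and 2 of the 3 PEG arrays were under 4. AOS averaged 4.05 after PEG once values under 4 were raised to it, and 5.51 ± 0.31 in untreated seeds (SD, n = 3). The groups thus differed by -1.46 on the log2 scale (SE 0.18, adjusted p = 0.0064 in limma). The deposited values gave -1.72 (SE 0.22, adjusted p = 0.00033). The change was under the fold limit, and leaving out any 1 array other than untreated array 3 raised the first adjusted p above the limit, to between 0.017 and 0.033; with the deposited values it was at most 0.0025.

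AOC1 and AOC2 encode allene oxide cyclases and are direct neighbours, with AOC3 next to AOC2, in the gene table. AOC1 had 1.42, 2.22 and 1.76 on the PEG arrays and 2.15, 2.67 and 2.27 on the untreated arrays, and AOC2 had 1.63, 1.62 and 1.40 against 1.39, 2.30 and 1.87. Both genes overlapped between groups and were under 4 throughout. Their near-identical copies can share probe signal, which was not tested. AOC3, the third of the row, was measurable: it had 4.45, 4.29 and 4.03 after PEG and 6.16, 5.67 and 6.27 in untreated seeds, without overlap. Its log2 fold change was -1.78 (SE 0.21, adjusted p = 0.0063). AOC4, on another part of the genome and named after its values were seen, had a fold change of -0.08 with a 95% confidence interval of -0.65 to 0.49.

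OPR3, the peroxisomal reductase on which most jasmonate formation depends, moved the other way. It had 5.45, 5.23 and 5.39 on the PEG arrays and 4.68, 4.84 and 4.71 on the untreated arrays, so every PEG value was above every untreated value. The means were 5.36 ± 0.11 after PEG and 4.74 ± 0.08 in untreated seeds (SD, n = 3), and the fold change of 0.62 was past the p limit (SE 0.08, adjusted p = 0.0073), though far from the fold limit. The other 2 features of OPR3 had fold changes of 0.39 and 0.36 and were not past it (adjusted p = 0.22 and 0.19). Leaving out any 1 array took the adjusted p to between 0.014 and 0.035, above the limit each time; with the deposited values (adjusted p = 0.0096 over all arrays) it passed only without untreated array 2 (0.0086).

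OPR1 and OPR2 are close relatives of OPR3 that work in the cytosol and act poorly on the natural precursor of jasmonic acid. The study had already named both, under fatty-acid metabolism, among transcripts that PEG reduced. It did so in its comparison of ABA with PEG, which cites an earlier publication for the PEG response. OPR1 had 2.80, 2.78 and 2.75 after PEG and 5.81, 5.51 and 4.85 in untreated seeds. OPR2 had 2.50, 2.35 and 2.28 after PEG and 4.44, 4.60 and 4.04 in untreated seeds. Neither gene overlapped between groups, and for both all PEG arrays were under 4 and all untreated arrays above it. With dim values set to 4, the fold change of OPR1 was -1.39 (SE 0.27, adjusted p = 0.023) and that of OPR2 was -0.36 (SE 0.16, adjusted p = 0.19), and neither passed. OPR1 did pass the p limit, with the same fold change, when only features above 4 on at least 3 arrays were fitted (limma adjusted p = 0.00049). It also passed when a trended prior was used (limma adjusted p = 1.8e-10). That fit kept dim features with a variance of 0, as did the fit over all features with dim values set to 4. The trended fit gave JAZ1 a limma adjusted p of 3.1e-39. The size of its p values is therefore not read as strength. Without untreated array 3, OPR1 had -1.66 (adjusted p = 0.0073). With the deposited values the fold change was -2.61 for OPR1 (SE 0.23, adjusted p = 5.2e-05) and -1.98 for OPR2 (SE 0.18, adjusted p = 5.8e-05). This put OPR1 past both limits and left OPR2 just short of the fold limit. The second feature of OPR1 had -0.46 with dim values set to 4 (limma adjusted p = 0.23) and -2.02 with the deposited values (adjusted p = 0.00056). The 2 genes lie side by side and overlap in the gene table, and OPR2 also overlaps AT1G76700; whether their probes share signal was not tested.

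**Figure D2:**
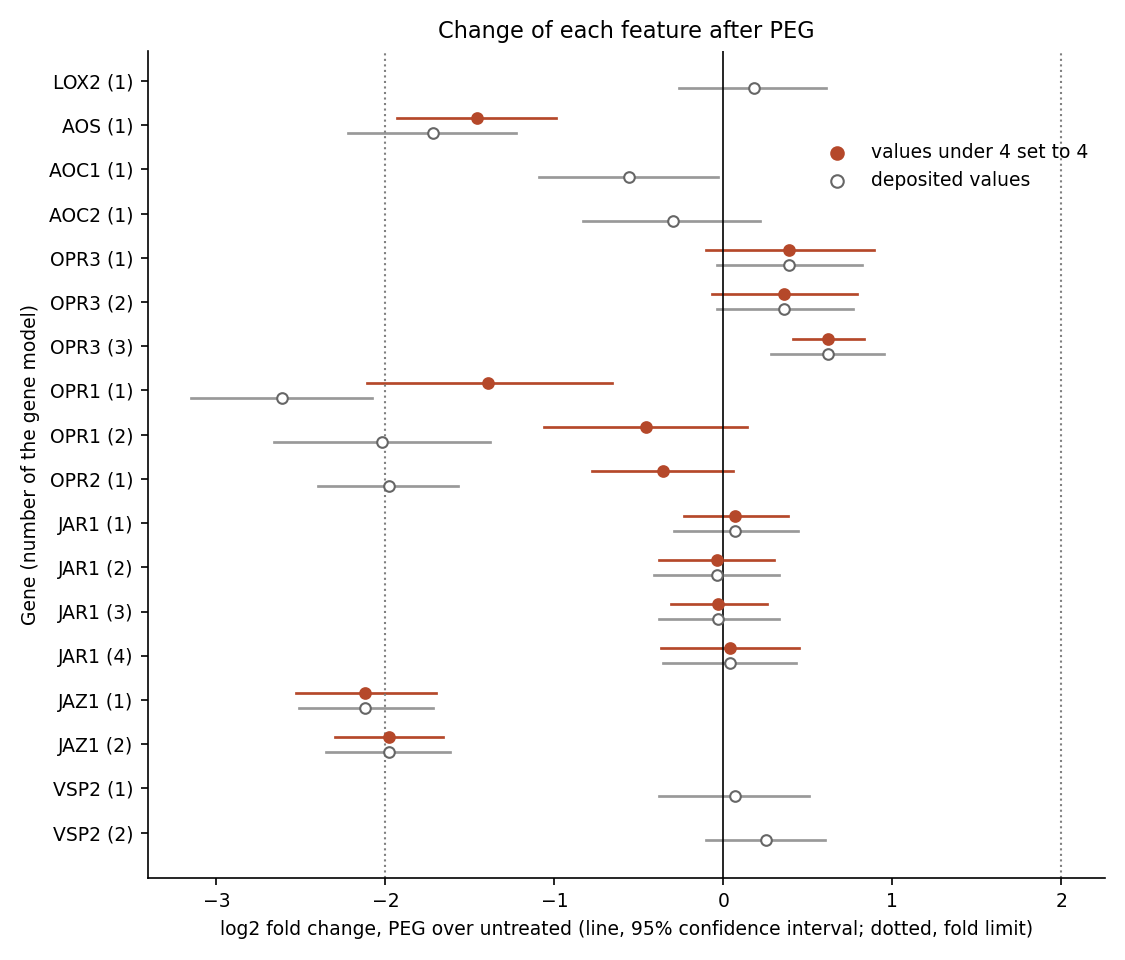
Log2 fold changes, PEG minus untreated, with 95% confidence intervals for the 18 features of the 10 genes. Filled symbols have values under 4 set to 4, open symbols use the deposited values, and dotted lines mark the fold limit of 2 in each direction. Both features of JAZ1 lie close to -2 under both treatments of dim values, whereas OPR1 passes it only with the deposited values and OPR2 stays just short of it even then.

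JAR1, the enzyme that forms the active conjugate, had 7.75, 8.05 and 7.95 on the PEG arrays and 7.79, 7.98 and 8.12 on the untreated arrays. The groups overlapped, with means of 7.92 ± 0.15 after PEG and 7.96 ± 0.17 in untreated seeds (SD, n = 3). The fold change was -0.04, with a 95% confidence interval of -0.38 to 0.30 and an adjusted p of 1, and the other 3 features gave between -0.03 and 0.07. Its sign turned to 0.03 when arrays were centred on their medians, so JAR1 has no direction here.

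JAZ1 gave the largest change of the 10 genes with dim values set to 4. It had 5.86, 6.36 and 6.05 after PEG and 8.22, 8.09 and 8.33 in untreated seeds, all well above 4 and far apart. The means were 6.09 ± 0.25 after PEG and 8.21 ± 0.12 in untreated seeds (SD, n = 3), which is a change of -2.12 on the log2 scale (SE 0.15, 95% confidence interval -2.53 to -1.70, adjusted p = 0.0019 in limma). The second JAZ1 feature had 5.37, 5.68 and 5.44 against 7.48, 7.33 and 7.62, a change of -1.98 (adjusted p = 0.0012) that fell just short of the fold limit. The interval of the called feature spans that limit. The call was lost without PEG array 3 (adjusted p = 0.014), untreated array 1 (0.013) or untreated array 3 (0.012), while the fold change stayed between -2.25 and -2.0; without untreated array 2, the array that stood apart, it was -2.18 (adjusted p = 0.0094). With the deposited values JAZ1 was called whichever array was left out (adjusted p = 6.7e-05 to 0.00038).

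VSP2, a vegetative storage protein used as a marker of jasmonate response in leaves and flowers, had 1.76, 1.75 and 1.53 on the PEG arrays and 1.43, 1.56 and 1.31 on the untreated arrays. It was under 4 everywhere and the groups overlapped. Its neighbour VSP1 was also under 4 on all arrays, and whether the probes of these 2 similar genes share signal was not tested. A value under 4 does not show that a transcript is absent.

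A wider list held 52 other genes of jasmonate synthesis, side routes, turnover, perception, repression and response. Of these 22 were under 4 on all arrays, beside 33.6% of all features. At an adjusted p of 0.01 or less, 8 of the 52 fell and 1 rose, beside 8.24% and 7.46% of all features, and 2 to 5 fell when 1 array was left out. At both limits limma called 0 of the 52, or 1 (LOX1, lower) where the p was left unadjusted and limited to 0.05. With the deposited values 14 fell and 4 rose at any fold, beside 15.2% and 11.6% of all features (7 to 12 fell when 1 array was left out), and 3 were called, all lower, beside 3.20% of all features. The median fold change of the 52 genes was 0, as over all features, and -0.16 with the deposited values, beside 0.01 over all features.

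Of 13 other synthesis genes 4 were under 4 on all arrays, 5 fell and 0 rose, beside 8.24% and 7.46% of all features (at an unadjusted p under 0.05 in limma, ACX5 and AIM1 were higher). The 5 were AOC3, LOX6, ACX1, KAT2 and PXA1, which act from the first oxygenation to β-oxidation. With the deposited values 5 fell as well, with OPCL1 in place of PXA1, beside 15.2% of all features. OPCL1 had a fold change of -1.05 (limma adjusted p = 0.036, and 0.0047 with the deposited values). LOX6, a plastid lipoxygenase, had 4.92, 5.13 and 5.30 on the PEG arrays and 6.28, 6.24 and 6.42 on the untreated arrays, a change of -1.20 (adjusted p = 0.0039). The acyl-CoA oxidase gene ACX1 had 8.06, 7.97 and 8.13 after PEG and 9.19, 9.19 and 9.21 in untreated seeds, a change of -1.14 (SE 0.05, adjusted p = 0.00052). The thiolase gene KAT2 changed by -0.66 (adjusted p = 0.0085) and the peroxisomal transporter gene PXA1 by -0.30 (adjusted p = 0.0093, and 0.13 with the deposited values). The other features of PXA1 did not pass (limma adjusted p = 0.027 for each). ACX1, KAT2 and PXA1 also serve the breakdown of seed oil. Of 3 genes of side routes, LOX1, a lipoxygenase of a separate oxylipin branch, had 5.41, 6.77 and 7.06 after PEG and 9.28, 9.02 and 9.09 in untreated seeds. Its change of -2.71 had an adjusted p of 0.019, and of 0.00053 with the deposited values, with PEG array 1 lower than the other 2. LOX5, of the same branch, had a change of -0.09 (limma adjusted p = 0.63), with 0 PEG arrays and 1 untreated array above 4. With the deposited values its change was -1.50 (limma adjusted p = 0.0039), a difference between mostly dim values.

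Of 7 turnover genes, 3 were under 4 on all arrays, beside 33.6% of all features. ST2A alone passed the p limit, by rising, while 8.24% of all features fell and 7.46% rose. ST2A, a sulfotransferase that acts on hydroxylated jasmonate, had 6.08, 6.00 and 6.03 on the PEG arrays and 4.39, 4.01 and 4.41 on the untreated arrays. It rose by 1.77 on the log2 scale (SE 0.13, adjusted p = 0.0018), the opposite direction to most changes in the list. IAR3, an amidohydrolase that splits the isoleucine conjugate, had a change of -0.96 (adjusted p = 0.014; 0.0024 with the deposited values).

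**Figure D3:**
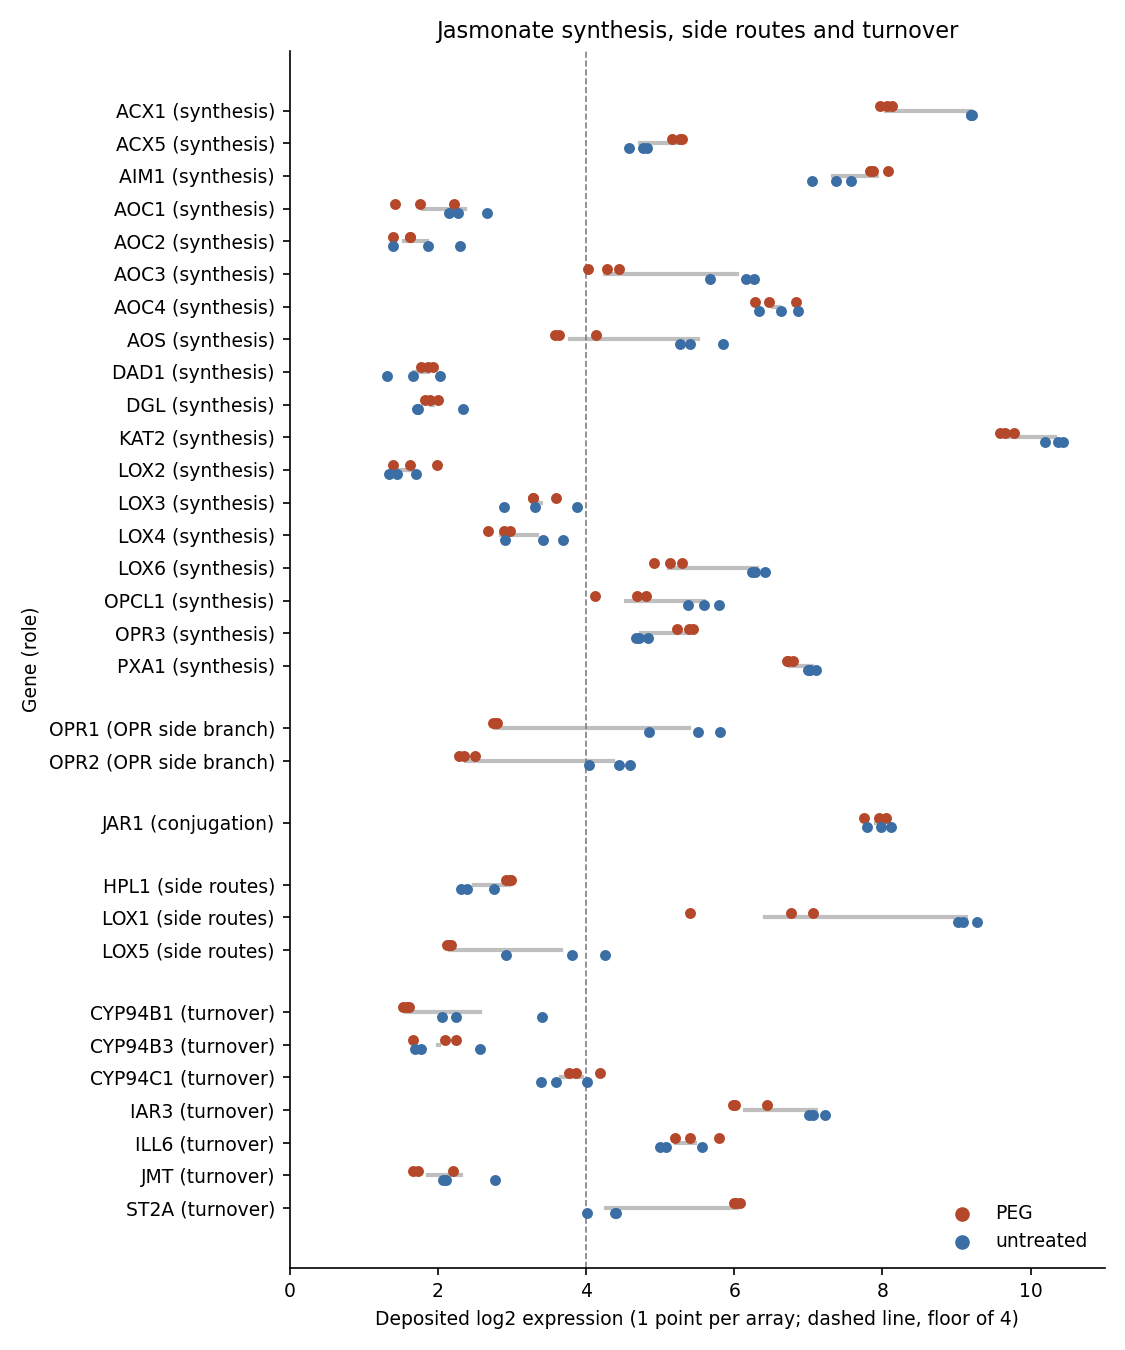
Deposited log2 values of the genes of synthesis, side routes and turnover, 1 row per gene, with 1 dot per array for PEG (upper) and untreated (lower) seeds. Grey bars join the group means and the dashed line marks 4. AOS, AOC3, LOX6 and ACX1 are lower on all PEG arrays, whereas OPR3 and ST2A are higher on all of them.

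In perception, COI1 had 7.10, 6.87 and 7.09 after PEG and 6.23, 6.51 and 6.05 in untreated seeds, a difference of 0.76 (adjusted p = 0.023; 0.0072 with the deposited values). NINJA, the adaptor that links JAZ proteins to a corepressor, differed by 0.78 (adjusted p = 0.023; 0.0066 with the deposited values). The PEG arrays lay wholly over the untreated arrays for both genes, as they did for 23.6% of all features. At the p limit 0 of these genes fell and 0 rose, while 8.24% of all features fell and 7.46% rose. With the deposited values 2 rose, beside 11.6% of all features.

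The other JAZ genes gave mixed values. Of 11 other JAZ genes, 4 (JAZ5, JAZ6, JAZ7 and JAZ8) were under 4 on all arrays. By adjusted p, 2 fell (JAZ9 and JAZ3) and 0 rose, beside 8.24% and 7.46% of all features. JAZ11 alone was higher at an unadjusted p under 0.05 in limma. With the deposited values JAZ4 and JAZ10 fell as well, so that 4 fell and 0 rose, beside 15.2% and 11.6% of all features. JAZ9 had 2.60, 2.06 and 2.92 on the PEG arrays and 5.26, 5.45 and 5.16 on the untreated arrays. Its change was -1.29 (adjusted p = 0.0013), and -2.76 (adjusted p = 3.3e-05) with the deposited values, since its PEG values were all under 4. JAZ3 had 5.64, 5.82 and 5.66 after PEG and 6.27, 6.47 and 6.31 in untreated seeds, a change of -0.65 (adjusted p = 0.0072). JAZ4 and JAZ10 dimmed below 4 on all PEG arrays, with changes of -0.82 (adjusted p = 0.011) and -0.57 (adjusted p = 0.11), and of -1.14 (adjusted p = 0.00071) and -1.18 (adjusted p = 0.0044) with the deposited values. JAZ2, JAZ11 and JAZ12, named after their values were seen, did not pass in either fit: JAZ2 had a fold change of 0.05 (adjusted p = 1), JAZ11 of 0.43 (adjusted p = 0.13) and JAZ12 of -0.22 (adjusted p = 0.30). The difference between JAZ1 and these genes was not tested.

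**Figure D4:**
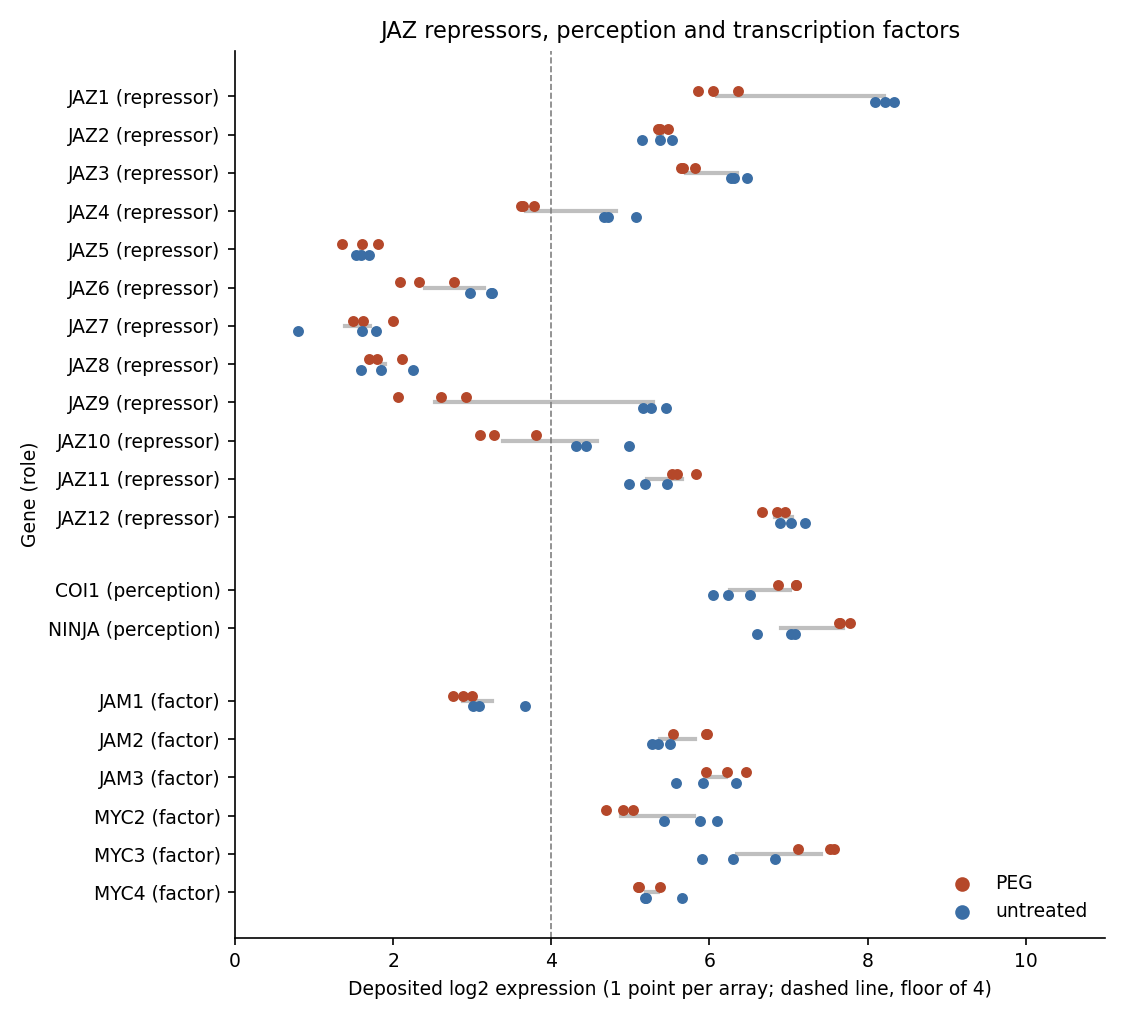
Deposited log2 values of the JAZ genes, COI1, NINJA and the transcription factor genes, 1 row per gene, with 1 dot per array for PEG (upper) and untreated (lower) seeds. Grey bars join the group means and the dashed line marks 4. JAZ1 and JAZ9 show the widest gaps between the groups, JAZ2, JAZ12 and MYC4 overlap, and COI1, NINJA and MYC3 lie higher on the PEG arrays.

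Of 6 transcription factor genes, JAM1 was under 4 on all arrays. None passed the p limit (0 lower and 0 higher), while 8.24% of all features fell and 7.46% rose. At an unadjusted p under 0.05 in limma, MYC2 was lower and MYC3 and JAM2 were higher. MYC2, the main activator of jasmonate responses, had 4.69, 4.91 and 5.03 after PEG and 5.43, 6.10 and 5.88 in untreated seeds, a difference of -0.92 (adjusted p = 0.037). Its relative MYC3 had 7.58, 7.12 and 7.52 after PEG and 6.30, 6.83 and 5.90 in untreated seeds, a difference of 1.07 (adjusted p = 0.060). With the deposited values both passed, in opposite directions (limma adjusted p = 0.0063 for MYC2 and 0.0083 for MYC3). Thus 1 fell and 1 rose, beside 15.2% and 11.6% of all features.

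Jasmonate-responsive genes were mostly dim in both groups. Of 10 such genes besides VSP2, 9 were under 4 on all arrays, with values between 1.16 and 3.61, beside 33.6% of all features under 4. The exception was CLH1, a chlorophyllase gene known for its induction by the hormone. It had 3.15, 3.12 and 3.07 on the PEG arrays and 5.27, 5.28 and 5.24 on the untreated arrays. Its change was -1.26 (limma adjusted p = 5.2e-05), and -2.15 (adjusted p = 9e-06) with the deposited values. In the first fit all its PEG values were set to 4, which left the PEG group with an SD of 0. The size of that p is therefore not read as strength.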

How the data were processed

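The authors deposited log2 expression values of 6 Affymetrix arrays, 3 PEG and 3 untreated, named by gene model; the labels name RMA, and the genome build is not given in the sources used here. No column was left unmapped (0). The floor, the p limit, linear modelling and the fold limit follow the study's methods for its ABA arrays; the adjustment of p was added here. Values under 4 were set to 4, and linear models without covariates (limma 3.58.1, functions lmFit and eBayes, R 4.3.3) compared PEG with untreated arrays, with Benjamini-Hochberg adjustment over 35986 features. The 12085 features under 4 on all arrays entered that fit with a variance of 0. A feature was called at an adjusted p of 0.01 or less and a log2 fold change of 2 or more in size. Tables and figures were made in Python 3.11.15. The fit was tested on simulated data with changes above the fold limit only, so smaller changes were not covered. Array number limits the precision, and an exact permutation test of 3 against 3 arrays cannot go below p = 0.1.

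The 10 genes and all lists were chosen with earlier results of these data known. All 10 members, and 27241 of 27981 loci, matched the gene table, TAIR10.1, used for names and neighbours only. Of 58 pathway genes listed, 6 whose names the table does not carry were dropped. Named pathway genes are those called, the 2 largest changes per role past the p limit, and any behind a count of 5 or fewer; others are marked in the text. Alternatives were no floor, a floor of 5, other limits, a filter on dim features, quantile normalization, centring, a trended prior, 1 feature per gene, the replicate block and leaving out each array. Those joining no floor with leaving out arrays, and the block with the filter, were chosen after seeing the data. Probe, promoter and protein sequences were not used here.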

Additional observations from a re-analysis of the deposited data

How the results depend on the processing

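The count of 990 called features was 1684 without the floor, 658 with a floor of 5, 3675 at a fold limit of 1 and 589 to 736 when 1 array was left out (624 without untreated array 1, 629 without untreated array 3, 589 without PEG array 2 and 605 without PEG array 3), or 1539 to 1761 when the floor was dropped as well (1539, 1760 and 1761 without PEG arrays 1, 2 and 3, and 1648, 1693 and 1723 without untreated arrays 1, 2 and 3). The 1 member called became 2 without the floor or at a fold limit of 1, and 0 to 1 with 1 array left out, or 2 to 3 without floor. Members that fell at any fold (2) were 4 without the floor, 3 with only features above 4 on at least 3 arrays (the filter), with a trended prior or at an adjusted p of 0.05, 1 with a floor of 5, and 0 to 2 with 1 array left out, or 4 without floor; the 1 that rose became 0 with a floor of 5, 0 with 1 array left out, and 0 to 1 without floor. The 0 pathway genes called became 3 without the floor, 6 at a fold limit of 1, 1 at an adjusted p of 0.05 or with the filter, and 0 to 1 with 1 array left out, or 3 without floor. The 8 that fell became 14 without the floor, 13 at an adjusted p of 0.05, 12 with the filter, 11 with a trended prior, 5 with a floor of 5, and 2 to 5 with 1 array left out, or 7 to 12 without floor. The 1 that rose became 4 without the floor or at an adjusted p of 0.05, 2 after quantile normalization or centring, 5 with the filter or a trended prior, and 0 to 1 with 1 array left out, or 1 to 4 without floor. The JAR1 fold change turned to 0.03 with centring and ran from -0.13 to 0.04 with 1 array left out; no other gene of the 10 that was above 4 on any array changed sign in any alternative run. Where no floor was set or features were filtered, dim features no longer enter with a variance of 0; the cause of the other shifts was not tested. Features under 4 on all arrays limit what can be said of LOX2, AOC1, AOC2 and VSP2.

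Same-numbered arrays did not deviate together (r = -0.11, -0.02 and 0.05 across features), beside -0.14 to 0.12 for differently numbered arrays. With so few arrays per group, these values cannot decide whether the numbers pair the samples. With the replicate block, 25 features, 0 members and 0 pathway genes were called, 0 members fell, 0 rose, 1 pathway gene fell and 0 rose, and JAZ1 had an adjusted p of 0.038. With the block and the filter together, the count of features was 1064 and that of members 1 (JAZ1, adjusted p = 9.3e-06), 3 members fell and 1 rose, 1 pathway gene was called, 12 fell and 5 rose.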
